A study of Mus musculus with 1536 samples.

Results

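Pax5, Sox14, Bcl11a and the 4 members of the nuclear factor I family (Nfia, Nfib, Nfic and Nfix) are transcription factor genes that were followed here in single serotonin neurons of the mouse raphe. They make 7 of the 53263 genes in the deposited table, and all 7 were among the 25522 genes with a read in 3 or more cells. They were chosen from measured values of these same cells, namely the number of cells with a read, the overlap between genes, the dissection, the relation to Gad1, Gad2 and Trh and the correlations within plates. Values of those kinds are therefore given as a description, with no test. Serotonin neurons were labelled by crossing Sert-Cre mice with the Ai14 tdTomato reporter on a C57BL/6J background, so every cell, in both groups, came from a reporter animal of 40 to 45 days with no further treatment. The label marks any cell with a history of the serotonin transporter promoter that drives Cre. Cells were sorted singly into wells by fluorescence and sequenced with Smart-seq2, a full-length protocol without molecular identifiers. A first group held the principal dorsal raphe (pDR, labelled "Principal DR", 290 cells on 5 plates) and a second the whole raphe dissection (labelled "All DR", which by the study's methods includes the median raphe, 709 cells on 11 plates).

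Animals are not named in the labels, and each dissection was therefore taken as 1 sample. By the study's methods each drew on several brains, which the labels do not tie to cells. No plate held cells of both dissections, and dissection and plate set cannot be told apart. The median cell had 755925.5 reads in pDR and 869546 in the whole dissection. A read of Tph2, the rate-limiting enzyme of serotonin synthesis, and of Fev, the Pet1 factor of serotonin neurons, was present in 999 of 999 cells. Values are counts scaled to the reads of each cell (CPM), and every positive value came back to a whole number of reads. Intervals are exact 95% Clopper-Pearson intervals and cover counting error only.

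Pax5 is a paired-box factor known for B cell identity and, with Pax2, for patterning of the midbrain-hindbrain border. Sox14 is a SoxB2 factor used by developing GABA neurons of the midbrain and diencephalon, and Bcl11a is a zinc-finger repressor of neurons and blood cells. The nuclear factor I proteins bind DNA as dimers at a palindrome of TTGGC and act in neuronal and glial maturation. Dorsal raphe serotonin neurons are known to include cells with Gad1 and Gad2, the enzymes that make GABA, and cells with Trh, the precursor of thyrotropin-releasing hormone.

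RefSeq promoter windows were found for 6 of the 7 genes. The windows of Pax5 and Sox14 are shown because nearly all Sox14 cells also held Pax5. That of Trh is shown because it ranked among the 5 genes most like both, of the genes with a mean over 10 CPM. Each is the 250 bases before the annotated start on the minus strand of GRCm38.p6, written 5′ to 3′ along the gene, with capitals marking TTGGC or its complement GCCAA, the nuclear factor I half-site.
Pax5, chr4:44710695-44710944: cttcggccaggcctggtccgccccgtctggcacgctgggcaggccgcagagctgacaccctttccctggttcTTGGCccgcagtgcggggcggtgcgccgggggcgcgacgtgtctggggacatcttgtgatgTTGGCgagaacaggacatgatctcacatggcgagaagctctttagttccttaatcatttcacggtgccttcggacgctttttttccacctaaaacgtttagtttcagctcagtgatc
Sox14, chr9:99876171-99876420: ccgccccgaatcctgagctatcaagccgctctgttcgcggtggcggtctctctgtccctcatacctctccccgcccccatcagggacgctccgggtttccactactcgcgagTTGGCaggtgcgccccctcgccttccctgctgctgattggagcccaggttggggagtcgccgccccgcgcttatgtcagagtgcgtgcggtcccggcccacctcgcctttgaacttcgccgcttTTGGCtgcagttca
Trh, chr6:92244651-92244900: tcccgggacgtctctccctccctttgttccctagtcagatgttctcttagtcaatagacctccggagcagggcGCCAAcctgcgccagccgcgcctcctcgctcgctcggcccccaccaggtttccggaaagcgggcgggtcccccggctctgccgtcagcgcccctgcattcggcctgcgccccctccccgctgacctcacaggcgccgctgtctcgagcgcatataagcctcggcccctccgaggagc
Pax5 and Sox14 each held 2 half-sites and Trh 1, and none held the full palindrome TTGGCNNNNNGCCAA. The windows of Bcl11a, Nfia, Nfic and Gad1, not shown, held 0 half-sites, and that of Gad2 held 1. Nfix had 4 annotated starts, of which 2 held 1 half-site each and 2 held 0. The half-site occurred on either strand in 41.5% of 32817 RefSeq promoter windows of this length, the full palindrome in 0.0366%. The motif TGACCA or its complement TGGTCA, known for BCL11A, was in 11.4% of all windows, and the SOX core ACAAT or ATTGT in 27.7%, but neither was in these 3. A match of letters is a description and not a bound site.

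Pax5 (ENSMUSG00000014030) lies at chr4:44524757-44710487 on the minus strand of GRCm38 in GENCODE M21, and Sox14 (ENSMUSG00000053747) is a gene of 1 exon at chr9:99874106-99876170, also on the minus strand. Pax5 had a read in 252 of 999 cells (25.2%, interval 22.6 to 28.0) and Sox14 in 156 (15.6%, 13.4 to 18.0). In the median cell with a read neither was at the edge of detection, but 6.75% of Pax5 cells and 3.85% of Sox14 cells rested on 1 read. The median Pax5 cell held 14 reads of the gene (16.2 CPM) and the median Sox14 cell 16 reads (18.0 CPM). Per kilobase of exon, mean levels over all cells were 1.72 CPM for Sox14 and 0.665 CPM for Pax5. Counting did not use strand, and 125 exon bases of Pax5 are shared with Gm12462, an antisense gene on the opposite strand with a read in 96 cells, 48 of which also had Pax5. A further 636 exon bases are shared with the opposite-strand 5730488B01Rik, a gene not analysed here, whose reads cannot be told apart from those of Pax5.

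Bcl11a (ENSMUSG00000000861, chr11:24078056-24174123, plus strand) had a read in 172 cells (17.2%, 14.9 to 19.7), with a median of 12 reads where present. Nfic (ENSMUSG00000055053, chr10:81396186-81455635, minus strand) was the broad member of its family, with a read in 729 cells (73.0%, 70.1 to 75.7). Nfix (ENSMUSG00000001911, chr8:84699876-84800344, minus strand) was found in 131 cells (13.1%) and Nfia (ENSMUSG00000028565, chr4:97772734-98118874, plus strand) in 96 (9.61%). Nfib (ENSMUSG00000008575, chr4:82290173-82705750, minus strand) was found in only 33 cells (3.30%, 2.28 to 4.61). Nfia was the thinnest of these measurements, since 26.0% of its cells rested on 1 read. Mean levels per kilobase over all cells ran from 1.72 CPM for Nfic through 0.364 for Nfix, 0.336 for Bcl11a and 0.131 for Nfia to 0.0455 for Nfib. The Nfia level leaned on 1 cell, described with the glial markers. Before scaling to exon length, the Nfia mean was 1.42 CPM over all cells and 0.812 without that cell.

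The principal dorsal raphe held most of the Pax5 and Sox14 cells. On its 5 plates a Pax5 read was present in 59.1%, 61.2%, 53.5%, 46.4% and 58.5% of cells. On the 11 whole-raphe plates the share ran from 0% (0 of 30 cells, which allows up to 10%) through a median of 10.4% to 22.2%. The groups did not overlap, and the lowest pDR plate was still well above the highest whole-raphe plate. How many of all genes do not overlap in share of cells was not counted. In mean CPM all pDR plates lay above all others for 2.43% of genes. Sox14 was present in 35.5%, 47.1%, 20.9%, 17.9% and 29.3% of cells on the same pDR plates and in 0% to 15.1% (median 7.69%) on the whole-raphe plates. Its pDR plates also stood above all others in share of cells, but they spread more widely than those of Pax5. In mean CPM the groups overlapped for Sox14, with 3.67 on the lowest pDR plate and 4.57 on the highest whole-raphe plate. Bcl11a was present in 44.1%, 34.1%, 30.2%, 53.6% and 24.4% of pDR cells by plate, against 2.70% to 16.7% (median 7.79%). The plates differed in order from gene to gene, since the plate lowest for Sox14 was the highest for Bcl11a.

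The nuclear factor I genes split in 2 directions. Nfix was found in 16.3% to 32.3% of cells on pDR plates and 2.63% to 15.4% on the others, and Nfia in 14.0% to 35.7% against 2.6% to 8.11%. Nfib ranged from 2.33% to 17.9% on pDR plates and from 0% to 5.77% on the others, of which 6 had no cell with a read, and these ranges overlapped. Nfic was the only one of the 7 lower in pDR, at 48.8% to 68.2% of cells against 70.0% to 87.3%. Depth moved with the dissection. With every cell thinned to 250000 reads (9 shallower cells left out), the shares in pDR and in the whole dissection were 48.8% and 9.84% for Pax5, 31.1% and 7.99% for Sox14, 32.9% and 6.99% for Bcl11a, and 50.5% and 69.6% for Nfic.

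**Figure D1:**
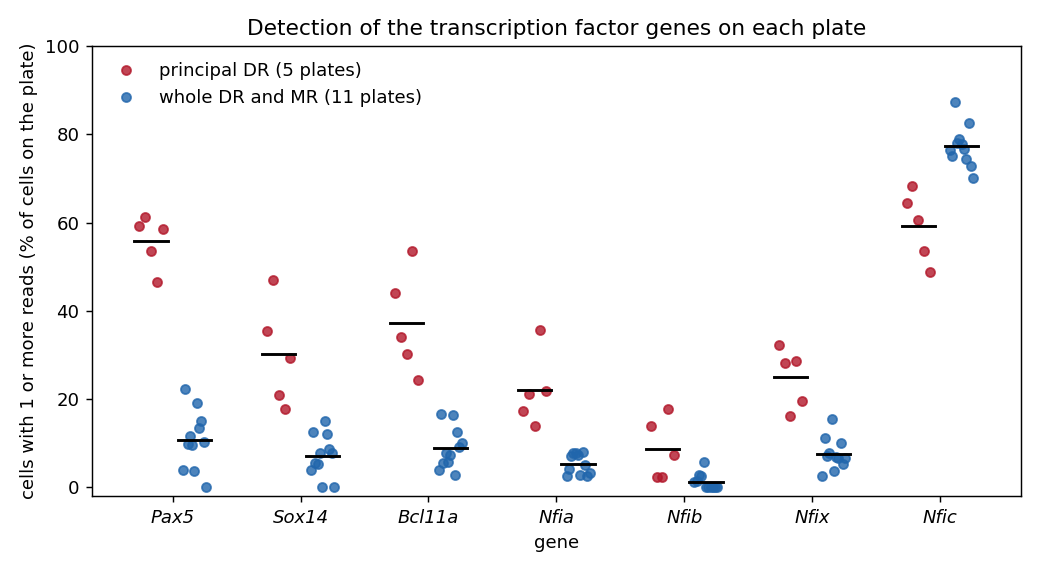
Percent of cells with at least 1 read of each gene (vertical axis) on each plate, 1 point a plate, for the 5 principal dorsal raphe plates (red) and the 11 whole-raphe plates (blue), with the mean over plates as a line. Pax5 runs from 46.4% to 61.2% on pDR plates and from 0% to 22.2% on the others, while Nfic lies lower on pDR plates (48.8% to 68.2%) than on the others (70.0% to 87.3%).

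In mean CPM with plates weighted equally, Pax5 was 13.6 in pDR and 2.38 in the whole dissection, a log2 ratio of 2.11 with 1 CPM added to both. The ratio was 1.86 for Bcl11a and 1.33 for Sox14. It was 0.72 for Nfib, 0.65 for Nfix, 0.36 for Nfia and -0.73 for Nfic. Thus 3 of the 7 genes were at a log2 ratio of 1 or more and 0 at -1 or less, where 1.84% and 1.1% of all 25522 genes were. With 10 CPM added in place of 1 none of the 3 reached it. Bcl11a and Pax5 also had all pDR plates above all others in mean CPM, as did 2.43% of genes, and Nfic had all of them below, as did 2.54%. For Sox14, Nfia, Nfib and Nfix the plates of the groups overlapped in mean CPM. The choice of genes used this contrast, so the counts are not read further. Just inside the threshold of 1 stood Sox14, at 1.33, and just outside it Nfib, at 0.72. Without 1 cell, which is described with the glial markers, Nfia stood at 1.17 and would be counted too. That cell also held reads of Nfib and Nfix. Without 1 plate at a time the ratio ran from 0.39 to 1.05 for Nfib and from 0.53 to 0.95 for Nfix.

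Pax5 and Sox14 shared cells to an unequal degree. Both had a read in 146 cells, 93.6% of the Sox14 cells but 57.9% of the Pax5 cells. If the genes had been independent within each plate, 66.5 shared cells would have been counted, so the observed number was 2.20 times that. Sox14 without Pax5 was seen in only 10 cells, while 106 cells had Pax5 without Sox14. In pDR the shared cells were 94 of 99 Sox14 cells (94.9%), and in the whole dissection 52 of 57 (91.2%).

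Another set of overlaps joined Bcl11a, Nfib and Nfix. Nfib and Nfix shared 24 cells (72.7% of the Nfib cells), 3.06 times the 7.83 counted under independence within plates. Nfib and Bcl11a shared 25 (2.32 times), Nfia and Nfib shared 14 (2.40 times), and Bcl11a and Nfix shared 78 (2.23 times). By contrast Sox14 and Nfib met in only 4 cells, where 8.15 would have been counted (0.491 times). In pDR 2 cells held both where 7.53 would have been counted (0.265 times), and in the whole dissection 2 where 0.612 would have been (3.27 times), a number too low to show fewer. Pax5 was present in 78.8% of the Nfib cells. Nfic stood near independence of all the others, at 0.93 to 0.97 times. Leaving Nfic aside, 631 cells had no read of the remaining 6 genes, 126 had 1 of them, 94 had 2, 85 had 3, 46 had 4, 15 had 5 and 2 had all 6.

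Reads of the GABA enzymes were more frequent in cells with 2 or more of these genes. Gad1 or Gad2 was found in 17.1% of the cells with none of the 6 genes and in 27.8% of those with 1. The share was 75.5% with 2, 85.9% with 3, 93.5% with 4 and 100% with 5 or 6. These shares pool the dissections. From none to 1 gene the share was 16.3% and 50% in pDR but 17.2% and 16.7% in the whole dissection, and with 2 genes it was 83.1% and 62.9%. For none, 1, 2 and 3 genes the median depth was 783201, 707876, 793860 and 728544 reads in pDR. In the whole dissection it was higher with more genes up to 3, at 854571, 877808, 928218 and 1032920 reads. With 4 genes it was 670678 reads there (8 cells) and with 5 it was 1163700 (3 cells). The part of depth in the whole dissection was not tested. Trh was found in 0.792% of the cells with none of the 6 genes and in 50.6% of those with 3.

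Cells with and without a read of Gad1 or Gad2 were next compared on the same plate (347 and 652 cells, 16 plates). Pax5 was present in 60.2% of the cells with Gad and 6.60% of those without, and its mean was 11.9 and 1.2 CPM, a log2 ratio of 2.55 ± 0.87 (SD over plates), above 0 on 15 plates and 0 on the other. Sox14 was present in 39.2% and 3.07%, with a ratio of 2.50 ± 1.23, above 0 on 14 plates. Neither gene was below 0 on any plate. Nfix had a ratio of 2.16 ± 1.45 (30.3% and 3.99% of cells, above 0 on 14 plates) and Bcl11a of 1.79 ± 1.75 (36.6% and 6.90%, 13 plates). Nfib (1.35 ± 1.16) and Nfia (1.27 ± 1.54) were each above 0 on 8 of the 16 plates and below it on 2 and 8, and without the 1 cell with the most Nfia the ratios were 1.03 and 0.11. Nfic was level at -0.04 ± 0.51. Thus 6 of the 7 genes passed a log2 ratio of 1 and 0 passed -1 (5 of the 7 passed 1 without that cell), where 0.733% of all genes were called higher and 0.165% lower; this relation, too, was part of how the genes were chosen.

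Pax5 was more frequent in cells with Gad1 than in cells with Gad2 and no Gad1. Of the 136 cells with a Gad1 read, 88.2% had Pax5 and 89.7% had Pax5 or Sox14. Of the 211 cells with Gad2 but no Gad1, 42.2% had Pax5. Within pDR these shares of Pax5 were 91.5% and 72.7%, and within the whole dissection 76.7% and 24.6%. Only 17 cells had Gad1 but no Gad2, and 58.8% of them had Pax5. That share was 80% of 10 cells in pDR and 28.6% of 7 in the whole dissection. Of the cells with Gad2 but no Gad1, 117 (55.5%) had neither Pax5 nor Sox14. Those 117 came mostly from the whole dissection, where they were 98 of 134 such cells (73.1%), against 19 of 77 in pDR (24.7%). GABA enzyme reads thus also occurred in many cells without either gene. Among all cells with Gad1 or Gad2, Pax5 was present in 83.6% in pDR and 34.1% in the whole dissection.

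Cells with and without a Trh read were compared on the 13 plates that held 3 or more of each (136 and 729 cells). These cells are in part the same as in the Gad comparison, so the 2 are not independent. Pax5 was present in 88.2% of Trh cells and 16.7% of the others, with a log2 ratio of 2.79 ± 1.13 and all 13 plates above 0. Sox14 was present in 64.7% and 8.78%, with a ratio of 2.74 ± 1.84 on 12 plates above 0. For Sox14 the ratio was 1.09 within pDR and 3.92 within the whole dissection, while Pax5 was at 2.02 and 3.77. Bcl11a (1.75 ± 1.13, 12 plates) and Nfix (1.34 ± 1.69, 10 plates) were also higher in Trh cells. Nfib (0.52), Nfic (-0.37) and Nfia (-0.95) did not reach a log2 ratio of 1 in size, and without the 1 cell with the most Nfia the ratio was -0.40 for Nfia and 0.74 for Nfib. Nfib was at 1.5 within pDR and -0.55 within the whole dissection. The latter rested on a read in 1 of 38 Trh cells and 6 of 537 others, and plate 55, which held the cell with the most Nfia, was at -2.25. By share Nfib was higher with Trh there (2.63% and 1.12%), so the sign is not read further. So 4 of the 7 genes passed 1 and 0 passed -1, beside 1.03% of all genes higher and 1.15% lower.

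**Figure D2:**
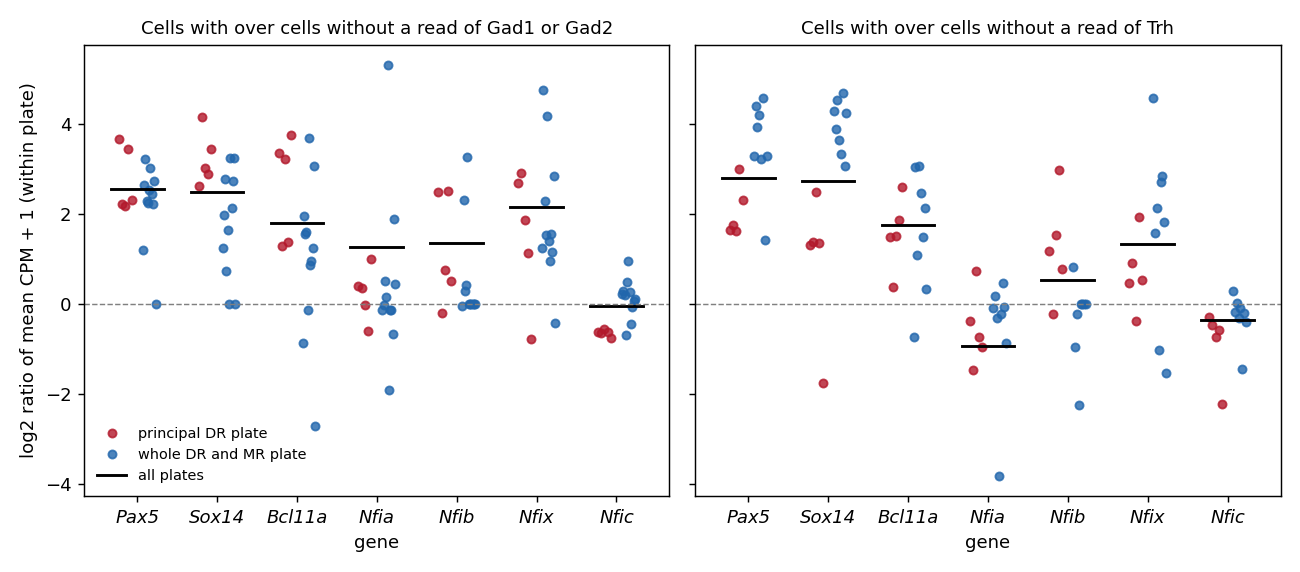
Log2 ratio of mean CPM (1 CPM added) in cells with over cells without a read of Gad1 or Gad2, and of Trh, for each of the 7 genes, with 1 point a plate (red for pDR, blue for whole raphe) and the ratio over all plates as a line. Pax5 lies at or above 0 on every plate in both comparisons (2.55 and 2.79), whereas Nfic is above 0 on 8 of 16 plates by Gad (-0.04) and on 2 of 13 by Trh (-0.37).

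Nfic went its own way within pDR. There it was lower in cells with Gad1 or Gad2 on all 5 plates (5.90 against 9.78 CPM, a log2 ratio of -0.64, plates from -0.76 to -0.57), while in the whole dissection it stood at 0.13, above 0 on 8 of 11 plates. Against Slc17a8, the vesicular glutamate transporter VGLUT3, it was higher in pDR cells with a read than without (9.84 against 5.28 CPM, 0.79, above 0 on all 5 plates), and at -0.05 in the whole dissection. Pax5 and Sox14 had the opposite sign in pDR, at -1.29 and -2.25 in cells with Slc17a8, below 0 on all 5 plates. Bcl11a (-0.21) and Nfix (0.20) had no single sign over those plates.

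Splitting the Pax5 cells by Sox14 separated cells of different composition. This comparison was chosen after the values of the genes were seen. Trh was read in 58.9% of the 146 cells with both genes and 34.0% of the 106 with Pax5 alone, beside 1.63% of the 737 with neither. By dissection the Trh shares were 61.7% and 45.2% in pDR, and 53.8% and 9.09% in the whole dissection. Gad1 was found in 47.9% and 47.2% of the pooled cells, but in 61.7% and 53.4% in pDR and 23.1% and 33.3% in the whole dissection. Gad2 was found in 87.0% and 67.9%. Slc17a8 was found in 17.1% of the cells with both and 53.8% of those with Pax5 alone. Bcl11a (39.0% and 62.3%), Nfix (32.9% and 48.1%) and Nfib (2.74% and 20.8%) were all more frequent in the cells with Pax5 alone. The 10 cells with Sox14 alone were too few to describe.

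Within plates (131 Pax5 cells with and 102 without Sox14, 11 plates) the log2 ratio was -2.01 for Nfib, -1.98 for Nfix and -1.51 for Bcl11a, with 7, 9 and 9 plates below 0. Nfia (-1.41, 7 plates below 0) and Nfic (-1.01, 9 plates) were also past -1, so that all 5 other members were lower with Sox14. Pax5 itself stood at 0.40 and Gad1 and Gad2 at -0.35 and 0.07. Of all genes, 0.635% were at 1 or more and 1.55% at -1 or less. Genes were ranked here only if their mean was over 20 CPM with or without Sox14, so a gene could enter through its high side alone. Besides Sox14 the highest of the ranked genes were Parvg, an actin-linked parvin (2.53), Peli2 (1.93), Stac (1.70) and Prph, the intermediate filament peripherin (1.67). The lowest of the ranked genes were Tpbg (-4.27), Pcp4l1 (-3.58), Slc17a8 (-3.13), the R-spondin Rspo3 (-3.10), Tmeff2 (-3.08) and the serotonin receptor gene Htr5b (-2.97). They were below 0 on all 11 plates, except Tpbg on 10 and Tmeff2 on 8. Ret, the receptor for GDNF-family ligands, was at -1.65 and below 0 on all 11. The genes outside the 7, Gad1, Gad2 and Trh were named here after their values were seen.

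**Figure D3:**
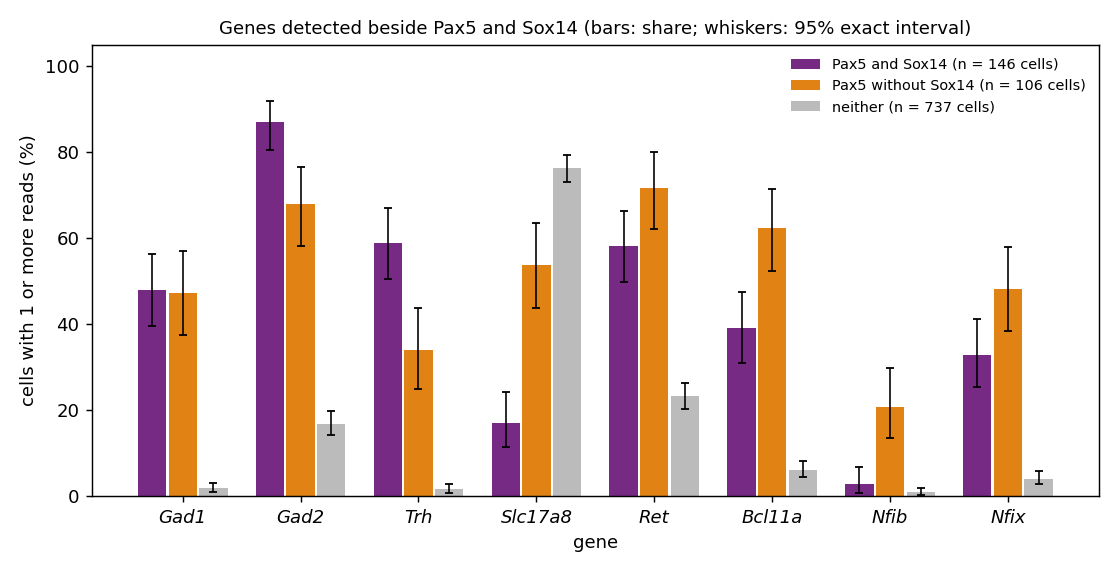
Percent of cells with a read of each gene (vertical axis) in cells with both Pax5 and Sox14 (146 cells), Pax5 alone (106) and neither (737), as bars with exact 95% intervals as whiskers. Slc17a8, Bcl11a and Nfib are more frequent with Pax5 alone (53.8%, 62.3% and 20.8%) than with both (17.1%, 39.0% and 2.74%), and Gad1 is close in the pooled cells (47.2% and 47.9%).

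Correlations across cells were computed from the same values as the overlaps. They are Pearson r of ln(CPM + 1) with plate means subtracted over 999 cells. The cells share plates and brains and differ in depth, so the correlations are descriptions. Pax5 and Sox14 had r = 0.59 (0.44 within pDR plates and 0.76 within the others), above 0 on all 14 plates where it could be computed. Pax5 had r = 0.45 with Nfix and 0.37 with Bcl11a, whereas Sox14 had 0.15 and 0.10. Nfib with Nfix was at 0.42, Bcl11a with Nfix at 0.41, Bcl11a with Nfib at 0.31 and Nfia with Nfix at 0.29. Sox14 with Nfib was at -0.07, and Nfic was between -0.08 and 0.00 with every other member. With Gad1, Gad2 and Trh, Pax5 had r of 0.54, 0.43 and 0.57, and Sox14 0.33, 0.39 and 0.50. Nfix was at 0.46 and Nfib at 0.34 with Gad1.

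The genes most like each member were ranked among 8087 genes with a mean over 10 CPM. Pax5 and Sox14 had 4 of their 5 in common. For Pax5 they were Pcsk6, a proprotein convertase (0.69), Asb4 (0.64), Prph (0.58), Trh (0.57) and Fam19a2 (0.56). For Sox14 they were Pcsk6 (0.60), Prph (0.60), Trh (0.50), Wfdc12 (0.50) and Fam19a2 (0.48). With genes down to 1 CPM ranked, Oas1e entered the 5 of each, Pax5 and Sox14 entered each other's, and Trh was in neither. At the low end of the main ranking Pax5 and Sox14 both had Grm7, a metabotropic glutamate receptor (-0.56 and -0.49). Next came the protocadherin Pcdh19 for Pax5 (-0.49) and the copine Cpne6 for Sox14 (-0.49). An r of 0.3 or more was reached by 64 genes for Pax5 and 38 for Sox14.

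The lists of Bcl11a, Nfix and Nfib overlapped in part with that of Pax5, with Asb4 in the 5 of Nfix and Gad1 in 6th place for Pax5 (0.54). Bcl11a was led by Ret (0.49), the glypican Gpc5 (0.45), Rprm (0.44), the pentraxin Nptx1 (0.44) and Gad1 (0.36), and was lowest with Spock3 (-0.39) and Gpc3 (-0.36). Nfix was led by Gad1 (0.46), the phospholipase Pla2g7 (0.44), Asb4 (0.42), Ret (0.39) and Gpc5 (0.39), and Nfib by Gad1 (0.34), Sst (0.28), Gpc5 (0.26), Pla2g7 (0.25) and Ret (0.25). Ret, Gpc5 and Gad1 were thus near the top for all 3. The lowest were Opcml (-0.33) and Pcdh19 (-0.30) for Nfix, and Opcml (-0.28) and Rtn3 (-0.26) for Nfib. For Nfib, Rtn3 was at -0.05 within pDR plates and -0.46 within the others, and Opcml at -0.38 and -0.24. An r of 0.3 or more was reached by 11 genes for Bcl11a, 8 for Nfix and 1 for Nfib. No gene reached it for Nfia, whose top genes were Pla2g7 (0.16) and Sst (0.15, above 0 on 6 of 13 plates), or for Nfic, whose top genes were Fam114a1 (0.22) and Pcyt1b (0.18). The order for Nfia was not stable, since without the cell with the most Nfia only 1 of its 5 genes stayed, and with genes down to 1 CPM ranked 0 did.

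**Figure D4:**
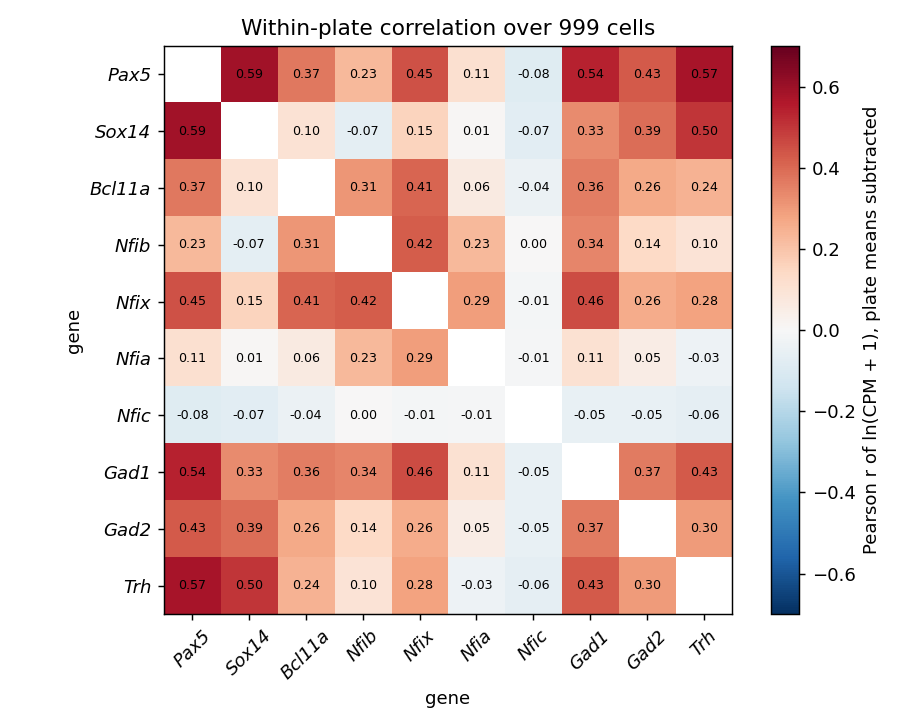
Pearson r of ln(CPM + 1) with plate means subtracted (colour, from negative to positive) over 999 cells between the 7 genes, Gad1, Gad2 and Trh. Pax5 is correlated with Sox14 (0.59) and also with Nfix (0.45) and Bcl11a (0.37), while Sox14 is near 0 with Nfib (-0.07) and low with Bcl11a (0.10) and Nfix (0.15), and the Nfic row is near 0.

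The cells were then grouped by Seurat on 2000 variable genes without the 7 members, which gave 11 clusters that are left unnamed. Clusters rest on genes correlated with the members, so levels by cluster are a description. Pax5 was frequent in 3 clusters. In cluster 3 (134 cells, 112 from pDR, led by Prph, Trh and Oas1e) Pax5 was read in 90.3% and Sox14 in 82.1% of cells, with Bcl11a in 39.6% and Nfib in 0.746%. In cluster 9 (35 cells, 2 from pDR, led by Arhgdib, Trh and Asb4) Pax5 was read in 91.4%, Sox14 in 88.6%, Bcl11a in 28.6% and Trh in 80% of cells. Most cells of cluster 3 came from pDR and most of cluster 9 from the whole dissection, and their shares of both genes were close.

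Cluster 7 (76 cells, 61 from pDR, led by Smoc2, Plpp4 and Ret) had Pax5 in 81.6% of cells but Sox14 in only 11.8%. It held the highest shares of Bcl11a (86.8%), Nfix (67.1%), Nfib (31.6%) and Nfia (28.9%) of the 11 clusters, with Gad1 in 59.2%. Of the 33 Nfib cells, 24 were in it. A GABA enzyme without Pax5 was seen in cluster 8 (44 cells, none from pDR, led by Grik1, Spp1 and Mbp), where Gad2 was read in 63.6% and Pax5 and Sox14 in 0 of 44 cells, which allows up to 6.82%. Cluster 5 (111 cells, led by Piezo2, Pter and C1ql3) had 0 cells with Pax5 or Bcl11a, which allows up to 2.70%, and the highest share of Nfic (88.3%). Nfic ranged from 60.4% to 88.3% over all clusters, lowest in cluster 3.

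**Figure D5:**
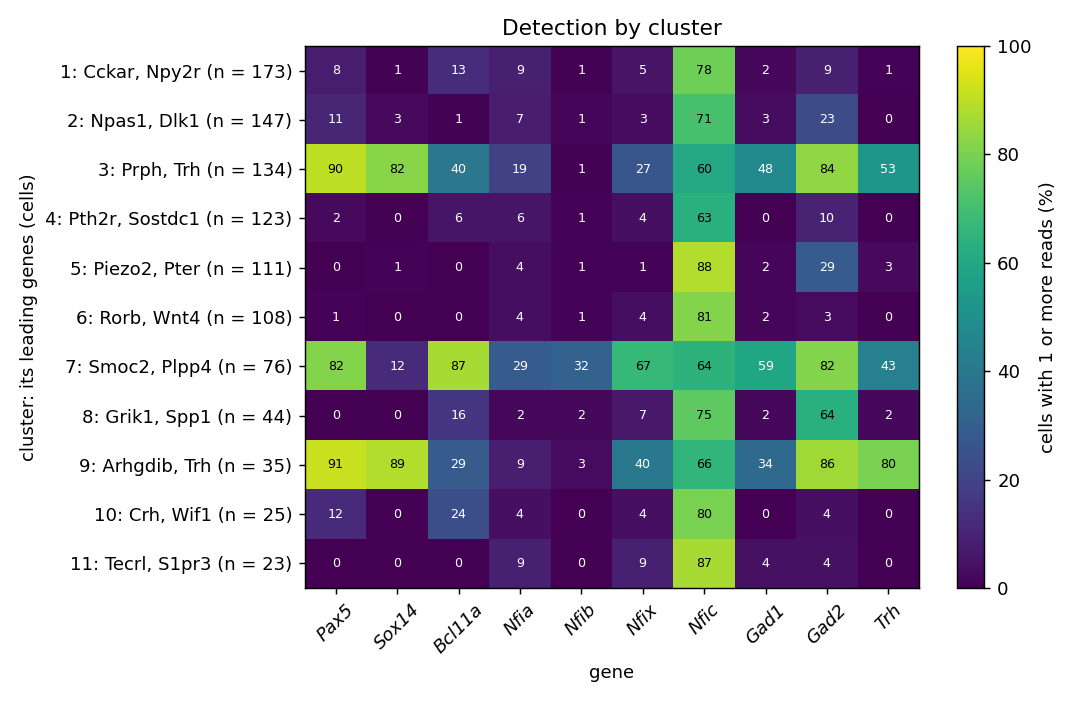
Percent of cells with a read of each gene (colour and number) in the 11 clusters built without the 7 members, each labelled by its number and cell count. Clusters 3 and 9 hold Pax5 with Sox14 (90.3% and 82.1%, 91.4% and 88.6%), cluster 7 holds Pax5 with Bcl11a, Nfix and Nfib (81.6%, 86.8%, 67.1% and 31.6%), and Nfic is in 60.4% or more of every cluster.

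Relatives of the members ranged from rare to broad. The list counts here and in the next paragraph stand beside the shares of all genes called. Those were 0.733% higher and 0.165% lower by Gad, 1.03% and 1.15% by Trh, and 1.84% and 1.1% between dissections. Of 9 PAX genes 4 were detected, and Pax2 was read in 57 cells, 50 of them (87.7%) with Pax5. Pax8 was read in 7 cells, 6 of them with Pax5. Of the PAX list Pax5 was the only one past 1 in the Gad comparison (list median 0.50), and Pax5 and Pax8 (1.07, above 0 on 5 of 13 plates) passed it in the Trh comparison. Of 19 SOX genes 18 were detected, with Sox11 in 732 cells, Sox1 in 446, Sox5 in 377 and Sox4 in 320. Sox14 was the only one past 1 in the Gad comparison (list median 0.01). Sox5 was at -1.60 in the Trh comparison, below 0 on all 13 plates. Bcl11b, the sister gene of Bcl11a, was read in 205 cells and had a dissection ratio of -1.99 and a Gad ratio of 0.63. The 2 BCL11 genes thus had opposite signs between dissections.

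Among 19 transcription factors of midbrain and hindbrain GABA neurons 12 were detected, and Sox14 and Lhx5 (1.52) passed 1 in the Gad comparison and 0 passed -1, with a list median of 0.19. Tal1, Helt, Lhx1 and Ptf1a were among the 7 of that list not detected in 3 cells. Of 13 isthmus genes 9 were detected, of which Pax5 alone passed 1 by Gad, while En1, Pax5 and Spry2 passed it between dissections. Of 9 serotonin identity factors 7 were detected, and 0 passed 1 in size by Gad or by Trh (Fev was at 0.37 and 0.76). Of 9 genes of GABA synthesis and handling, Gad1 and Gad2 passed 1 by Gad because the cells were split by them, and Aldh1a1 (2.07, 9 of 16 plates above 0) was the only other. The median of all genes was 0.01 between dissections, 0.00 by Gad and -0.01 by Trh. A further list, of dorsal raphe genes named by the study, was drawn from these cells and is not independent evidence; 7 of its 9 genes passed 1 by Gad, of which 2 are Gad1 and Gad2 themselves.

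Markers of other cells were set beside the members. Of the B cell markers Cd79b had no read in any cell, Ms4a1 had a read in 1 cell and Cd79a in 12. Ighm was the exception, in 344 cells at a mean of 92.3 CPM. The sum of Ighm and Cd79a was lower in Pax5 cells (30.0 CPM) than in the others (113 CPM). Marker values by Pax5 in this paragraph pool the dissections, and 167 of the 252 Pax5 cells were from pDR. Ighm stood at 38.7 CPM in pDR and 107 in the whole dissection, with plates weighted equally. Within plates its r with Pax5 was -0.09. Slc32a1, the vesicular GABA transporter, was read in 5 of 999 cells, 4 of them with Pax5, and the glycine transporter gene Slc6a5 in 6, of which 5 had Pax5 and 6 had Sox14. Slc17a6 was read in 2 cells and Slc17a7 in none. The 8 oligodendrocyte markers, led by Mbp, were all detected, and their summed median was 114 CPM in Pax5 cells and 102 in the others. Any of the endothelial markers was read in 17.9% of Pax5 cells and 3.48% of the others. The gap lay mainly in Ly6c1, the most abundant, where 42 of 57 cells had Pax5. The numbers were 1 of 8 for Pecam1 and 3 of 7 for Flt1, and Cldn5 had a read in 2 cells. Th, of the dopamine neurons, was read in 9.92% of Pax5 cells and 3.75% of the others, and Slc6a3 in 1 cell. Any of the microglial markers was read in 2.38% and 3.88%. For the astrocyte markers, led by Slc1a2, the shares were 42.1% of Pax5 cells and 70.4% of the others, with summed medians of 0 and 11.8 CPM. Within plates the r of Slc1a2 with Pax5 was -0.31. The part of these markers in the Pax5 values was not tested.

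A single cell weighed on the means of Nfia and Nfib. On whole-raphe plate 55, a cell of 476456 reads held 611 CPM of Nfia, 43.0% of the gene's total over all cells, with 130 CPM of Nfib (19.1% of its total) and 298 CPM of Nfix (11.2%). The same cell held 61351 CPM of Mbp, 514 of Aqp4 and 714 of Tph2, with no read of Pax5, Sox14, Bcl11a or Nfic. Summed astrocyte markers (7 of 7 detected, led by Slc1a2) averaged 50.9 CPM in Nfia cells and 20.0 in the others, and 17.0 in Nfia cells without it. Without that cell the dissection ratio of Nfia was 1.17, in place of 0.36. Whether other glial reads had a part in the Nfia and Nfib values was not tested.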

How the data were processed

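Single Sert-Cre;Ai14 serotonin neurons from 2 dissections were sequenced with Smart-seq2. By the submitters' processing notes and the study's methods, the authors demultiplexed with bcl2fastq 2.19.0.316, aligned to mm10 with STAR 2.6.1a and counted with HTSeq 0.11.2 without strand. The annotation version is not given in the sources used here. The authors deposited 1 table of CPM, gene counts scaled to the total reads of each cell, for 999 of 1536 labelled cells; Y-linked genes had been removed. Whole reads were recovered from it, and 100% of 9386862 positive values were whole within 0.001. Cells held 96834 to 2780443 reads (median 827283).

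The 7 members and all gene lists were chosen with earlier results of these data known. As the labels name no animals, each dissection was 1 sample and no test was run, so spreads over plates may be technical. Log2 ratios were taken from means of plate means with 1 CPM added, over genes with a read in 3 or more cells, and called at 1 in size. Gad and Trh ratios used plates with 3 or more cells on each side. Correlations used ln(CPM + 1) with plate means subtracted. Intervals were exact (95%), and a count of 0 was given a limit of 3 cells. Clusters were built in R 4.3.3 with Seurat 5.3.0 (2000 vst genes without the members, 20 components, 20 neighbours, Louvain resolution 1). No doublet caller was run. Named genes were the members, Gad1, Gad2 and Trh, the 5 most and 2 least correlated genes, the 3 leading genes of each cluster and up to 8 of each list by mean CPM. Gene positions came from GENCODE M21 and promoters from RefSeq (GRCm38.p6, letters matched on both strands). Python 3.11.15 with numpy 2.4.6, pandas 2.3.3 and scipy 1.17.1 was used, and the ratio and correlation code was tested on simulated data. Alternatives were another read threshold, pseudocount, weighting, filter, depth, clustering and correlation, and leaving out each plate.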

Additional observations from a re-analysis of the deposited data

How the results depend on the processing

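The labels do not tie cells to the brains they came from, so each dissection was taken as 1 sample and no result has a check over animals, and a share of cells with a read depends on depth. Requiring 5 reads lowered the shares over all cells to 18.6% for Pax5, 12.9% for Bcl11a, 4.80% for Nfia, 56.9% for Nfic and 8.51% for Nfix. Thinning to 250000 reads gave 21.2%, 14.5%, 6.36%, 64.0% and 10.5% in the same order. Leaving out 1 plate at a time gave 21.7% to 27.0% for Pax5, 12.7% to 16.6% for Sox14, 14.5% to 18.4% for Bcl11a and 2.21% to 3.59% for Nfib.

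With 10 CPM added the dissection ratios shrank to 0.93 for Pax5, 0.45 for Sox14, 0.74 for Bcl11a and -0.40 for Nfic, so that the count of genes at 1 or more went from 3 to 0, and with 0.1 CPM Nfib stood at 1.46. Without 1 plate at a time the dissection ratio of Nfia ran from 0.18 to 1.14 and its Gad ratio from 0.10 to 1.5, and plate 55, which held the cell with glial reads, gave the extremes of 1.14 and 0.10. The Gad ratio of Nfib was 3.57 with 0.1 CPM. With Gad1 alone as the split, an alternative chosen after seeing the data, the ratios were 3.33 for Nfia, 3.02 for Nfib and 3.75 for Nfix. Without the cell with glial reads, which has Gad1, they were 0.16, 2.10 and 3.20. The Gad ratio of Nfic ran from -0.11 to 0.0084 over the plates left out, above 0 only without plate 52. Without 1 plate at a time the Trh ratio of Nfia ran from -1.12 to -0.41 (without plate 55) and that of Nfib from 0.13 (without plate 39) to 0.87 (without plate 55). With no filter on low values 471 genes were called higher and 281 lower between dissections, against 470 and 281. With genes down to 1 CPM ranked, the 5 most correlated genes shared with the main ranking were 3 for Pax5 and Nfix, 2 for Sox14 and Bcl11a, 1 for Nfib, 0 for Nfia and 5 for Nfic. Components from all detected genes gave clusters whose highest shares were 57.5% for Bcl11a, 13.1% for Nfib and 50.0% for Nfix, and 3 of them held pDR cells of 2 plates each. Causes were not tested. No paired analysis was possible because the dissections shared no plate. The Gad and Trh ratios compare cells within plates.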
